A study of Drosophila melanogaster with 15 samples.

Results

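The comparison concerned wild type larvae of Drosophila melanogaster injected with Escherichia coli, set against wild type larvae injected with phosphate buffered saline (PBS), a sterile fluid that delivers the same puncture without bacteria. It took 6 of the series' 15 arrays, namely the 3 with the source name Injected (E. coli suspended in PBS) and the 3 with the source name Control (PBS alone). All were third-instar larvae, given about 0.1 microliter of fluid, and RNA was taken 2 h later from pools of 20 whole larvae. These arrays carry no mutation in their labels, and the series design calls them wild type. No stock name, sex or exact age is given in the sources used here. The control larvae were wounded too, so the comparison measured what bacteria added to the response to an injection. The other 9 arrays came from Relish E20, Dif1 and Dorsal1 mutants, and they entered only through the shared estimate of spread and a last description of levels.

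Fruit flies answer bacteria in the blood with antimicrobial peptides, which the fat body, the insect counterpart of liver and adipose tissue, secretes within hours. Peptidoglycan of Gram-negative bacteria such as E. coli is sensed by peptidoglycan recognition proteins and signals through the Imd pathway to the NF-kappaB factor Relish. Gram-positive bacteria and fungi act mainly through the Toll receptor and the factors Dif and dorsal. A puncture by itself also starts clotting, melanization and repair of the epidermis.

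Signals are the authors' scaled MAS 5.0 intensities in arbitrary units, and log2 differences are E. coli minus PBS on the scale log2(signal + 80). This scale understates the change of genes with low signals. SE is the standard error of a log2 difference in the limma fit. The threshold for a call was an adjusted p under 0.05 in limma, over all 11427 probe sets tested. The number of arrays limits the precision, and the median standard error of a log2 difference was 0.39. Over the probe sets tested, the log2 values of arrays within a group correlated at 0.906 to 0.940, and those of arrays across the groups at 0.904 to 0.940, so the treatment did not separate the arrays as a whole. The ratio of 3' to 5' signal of the actin control probe sets, a measure of RNA integrity and labelling, was 2.36, 5.28 and 3.41 on the E. coli arrays and 2.51, 6.27 and 5.18 on the PBS arrays. Replicate 1 had the lowest actin ratio in both groups, and the lowest GAPDH ratio too (2.64 with E. coli and 2.90 with PBS). For eIF-4a replicate 1 was lowest with PBS (4.49). Among the E. coli arrays replicate 3 was lowest there (5.11, against 5.35 for replicate 1). Since whole larvae were measured, more cells of a type and more RNA per cell cannot be told apart in any result. In both groups replicates 1, 2 and 3 are titled 1a, 2a and 2b, so replicates 2 and 3 share a title number. The labels do not say what that number means or whether the pools came from separate cultures. The 3 arrays of a group may therefore not be independent. P-values measure only how these samples vary, which may be technical.

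Few probe sets passed the threshold, and most of those were higher with bacteria. There were 17 probe sets called higher (0.149% of those tested) and 1 called lower (0.00875%), in all 18 (0.158%). The number depended on the fit, with 29 higher and 2 lower when only the 6 wild type arrays were fitted and 50 higher and 8 lower with array weights. A block for the replicate number in those 6 arrays gave 68 higher and 19 lower. Averaging the arrays that share a title number gave 12 higher and 0 lower. On none of the 18 of the reported fit did the E. coli arrays overlap the PBS arrays. Of all probe sets, 6.39% had every E. coli array above every PBS array and 5.58% had every one below. The same arrays enter the calls and this count, so it describes the 18 and is no test. Large differences were also more often upward. A log2 difference of at least 2 was found for 23 probe sets upward (0.201%) and 2 downward (0.0175%), and one of at least 1 for 175 upward (1.53%) and 110 downward (0.963%). The median over all probe sets was 0.00, and 90% of them lay between -0.63 and 0.70. At an unadjusted p under 0.05 there were 297 higher (2.60%) and 243 lower (2.13%), or 4.73% in all.

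**Figure D1:**
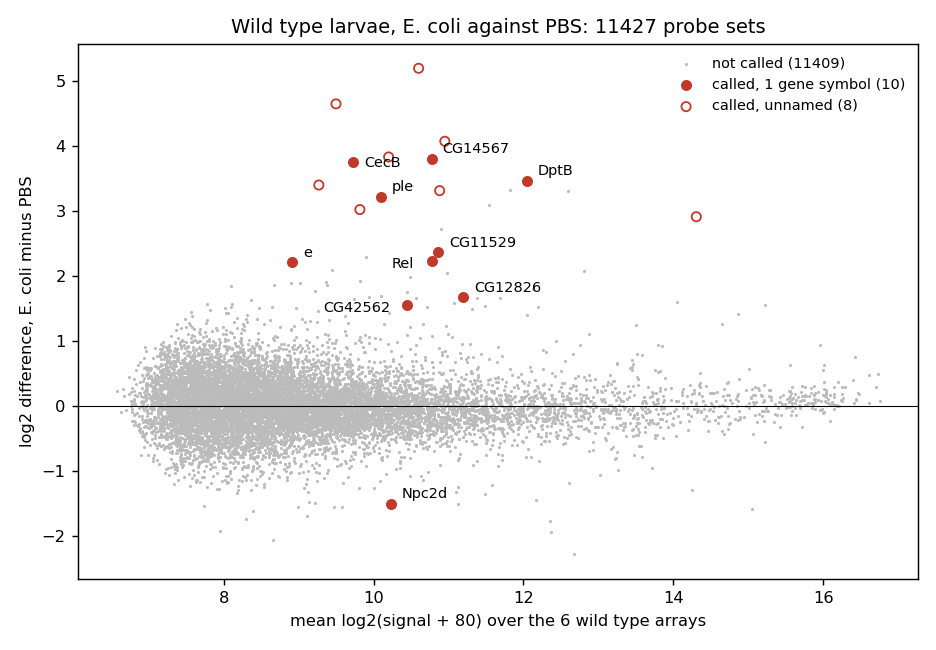
Each point is 1 of the 11427 probe sets tested, with its mean log2(signal + 80) over the 6 wild type arrays on the horizontal axis and its log2 difference, E. coli minus PBS, on the vertical axis. Open red circles are the 8 called probe sets without a gene symbol, all above 0, and filled red points the 10 with one, of which Npc2d is the single one below 0.

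Of the 18 called probe sets, 10 had exactly 1 gene symbol and 8 had none in the platform annotation. Those 8 were all higher, with log2 differences from 2.91 to 5.20. Probe set 143443_at read 14948, 5866 and 9272 on the E. coli arrays and 607, 60.7 and 94.3 on the PBS arrays, a difference of 5.20 (SE 0.67, adjusted p = 0.00155). It was the largest difference of all probe sets tested. Probe set 143097_f_at read 5037, 2582 and 3427 with E. coli and 47.9, 57.7 and 91.0 with PBS, a difference of 4.65 (SE 0.54, adjusted p = 0.00110). The 8 stayed without a gene name here. Whether they detect separate transcripts or share probe sequence was not tested. When each of the 6 arrays was left out in turn, 6 of the 8 unnamed and 4 of the 10 named probe sets kept their calls every time.

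Of 7 antimicrobial peptide genes tested, CecB and DptB were called higher. No probe set with exactly 1 gene symbol was found for DptA, AttA, AttB, AttC, CecA1, CecA2, CecC, Dro, edin and Mtkl. Those listed genes were not read, so the counts and the median cover only the 7. CecB encodes a cecropin, a helical peptide that breaks the membranes of Gram-negative bacteria. The CecB signal was 4454, 2288 and 2750 on the E. coli arrays and 61.3, 256 and 180 on the PBS arrays. The lowest E. coli array was far above the highest PBS array, and the log2 difference was 3.76 (SE 0.50, adjusted p = 0.00155). DptB, a diptericin with activity against Gram-negative bacteria, read 21731, 10452 and 11942 with E. coli and 1402, 735 and 1610 with PBS. DptB rose by 3.47 (SE 0.45, adjusted p = 0.00155), and here too the PBS arrays lay far below. Both calls held without each of the 6 arrays, at log2 differences of 3.40 to 4.03 for CecB and 3.15 to 3.67 for DptB.

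The other 5 antimicrobial peptide genes with a tested probe set were not called, although 4 of them had every E. coli array above every PBS array. Mtk, encoding the proline-rich peptide metchnikowin, read 7574, 3347 and 4493 with E. coli and 751, 336 and 1128 with PBS (2.72, SE 0.58, adjusted p = 0.0805). Def, encoding an insect defensin, read 1263, 771 and 1732 with E. coli and 590, 82.3 and 280 with PBS, so that its lowest E. coli array was close to its highest PBS array (1.91, SE 0.50, adjusted p = 0.251). AttD, an attacin gene whose product lacks a signal peptide, read 1603, 764 and 666 with E. coli and 358, 312 and 213 with PBS (1.47, SE 0.41, adjusted p = 0.359). Drs encodes the antifungal peptide drosomycin, a classic readout of Toll signalling. It read 21436, 17727 and 19739 with E. coli and 8475, 9609 and 12836 with PBS, so that it was already high in larvae injected with PBS (0.94, SE 0.42, adjusted p = 1.00). Andropin, Anp, a peptide of the male reproductive tract, overlapped between the groups (0.52, SE 0.47). Over the 7 genes the median log2 difference was 1.91 and all 7 were positive, whereas the median over all 9190 genes tested was -0.01 and 49.1% of them were positive. Without PBS replicate 1 the median of the 7 was 2.40. Of all 9190 genes, 6.12% had every E. coli array above every PBS array and 5.91% had every one below. These shares stand beside the counts without overlap in all lists below.

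**Figure D2:**
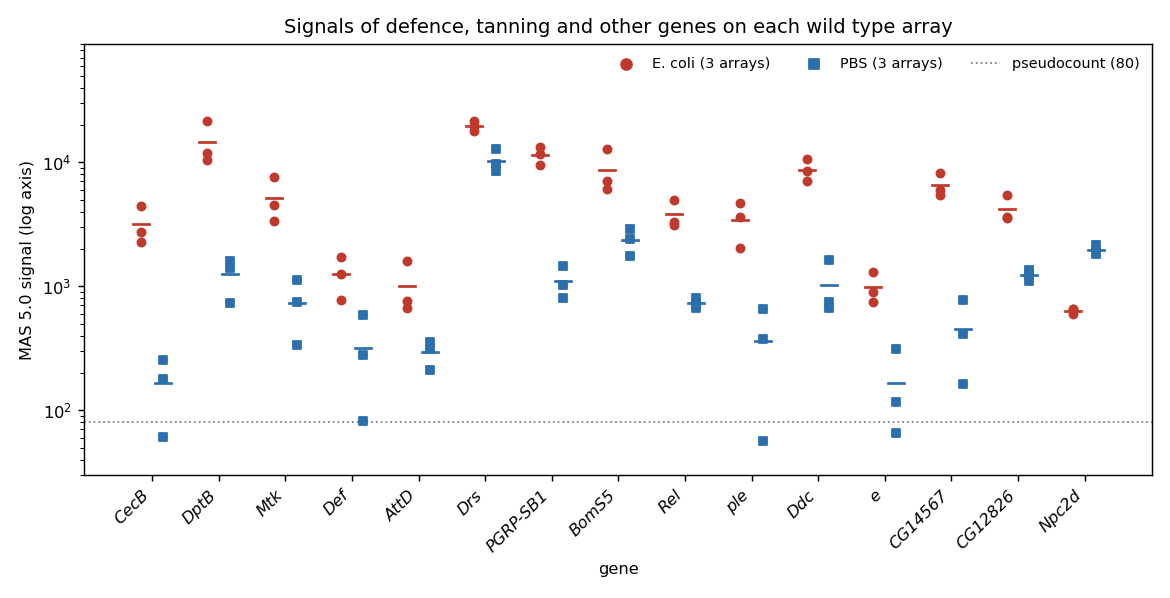
Signal on each wild type array for 15 genes on a log axis, E. coli (red circles) left of PBS (blue squares), with a bar at the mean of 3 arrays and a dotted line at the pseudocount of 80. CecB, DptB, Rel, ple, e, CG14567, CG12826 and Npc2d were called, and Npc2d is the one whose E. coli arrays lie below its PBS arrays.

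Relish itself was induced. Rel, the NF-kappaB factor at the end of the Imd pathway, read 4981, 3095 and 3329 with E. coli and 807, 664 and 722 with PBS, and it rose by 2.23 (SE 0.34, adjusted p = 0.00459). The call was lost without E. coli replicate 1 (2.02, adjusted p = 0.0623). It was the single called gene among 15 tested members of the Imd pathway, whose median was 0.04 with 9 members above 0 and 6 below. The pathway's intracellular inhibitor pirk, itself known as a Relish target, read 455, 453 and 472 with E. coli and 236, 157 and 278 with PBS. Its arrays did not overlap, yet its difference of 0.85 (SE 0.45, adjusted p = 1.00) was not called. The adaptor gene imd read 0.04, with another probe set at 0.56, and the adaptor gene Fadd read -0.06. For the caspase gene Dredd the difference was 0.24 and for the kinase subunit genes IKKbeta and key it was 0.33 and 0.29, none of them called. Tab2, the partner of the kinase Tak1, was the lowest member at -0.42 (SE 0.35).

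Receptors and scavengers of bacterial cell wall showed 1 large difference and many small ones. PGRP-SB1, a secreted amidase that cleaves peptidoglycan, read 9507, 11613 and 13335 with E. coli and 1026, 807 and 1468 with PBS. The groups were far apart and the log2 difference was 3.32, but its spread over the 15 arrays of the fit was wide (SE 0.74) and it was not called (adjusted p = 0.0916). It was called when only the 6 wild type arrays were fitted (SE 0.23, adjusted p = 0.000270) and with array weights (adjusted p = 0.0162). PGRP-LB, an amidase that dampens Imd signalling, read 2604, 1387 and 2262 with E. coli and 1233, 1317 and 1079 with PBS (0.71, SE 0.25, adjusted p = 0.792), with no overlap between the groups. PGRP-LF, a membrane receptor that inhibits the pathway, read 0.84 (SE 0.45), and GNBP2, of the glucan-binding family, read 0.88 (SE 0.42) from signals of at most 243. PGRP-LE, an intracellular sensor of peptidoglycan, was at 0.00. No gene among the 9 tested was called, 4 had all E. coli arrays above all PBS arrays, and the median was 0.35. It was 0.77 without PBS replicate 2.

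Peptides known as products of Toll signalling also tended upward without a call. BomS5, a short secreted bomanin, read 12826, 6110 and 7127 with E. coli and 1747, 2893 and 2427 with PBS (1.80, SE 0.39, adjusted p = 0.0805). BomBc2 read 986, 978 and 1283 with E. coli and 399, 544 and 450 with PBS (1.09, SE 0.33, adjusted p = 0.462), and BomS2 read 0.98 (SE 0.47). These 3 were the members with no overlap between the groups. Of 11 tested genes none was called, 10 were above 0, and the median was 0.57. Bbd, or Bombardier, encodes a protein needed for the action of short bomanins. It belonged to no list and read 7047, 2689 and 3388 with E. coli and 1251, 748 and 815 with PBS (2.04, SE 0.44, adjusted p = 0.0805).

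The genes of the Toll pathway itself differed little. The receptor gene Tl read 1576, 1135 and 1303 with E. coli and 900, 384 and 911 with PBS (0.88, SE 0.32, adjusted p = 0.813). Dif read 246, 255 and 338 with E. coli and 115, 167 and 234 with PBS, a difference of 0.53 (SE 0.41). dl, the gene of dorsal, read 723, 330 and 312 with E. coli and 306, 215 and 238 with PBS, a difference of 0.61 (SE 0.44). Neither was called, at adjusted p = 1.00 each, although the E. coli arrays of both lay above the PBS arrays. The inhibitor gene cact read 0.37, the adaptor genes Myd88 and tub 0.30 and -0.57, and the ligand gene spz -0.19. The lowest value of the list was that of cactin, at -0.67 (SE 0.55). Among 14 tested members 11 were above 0, 5 had no overlap upward and none had any downward, with a median of 0.38 that was 0.19 without PBS replicate 2.

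Upstream of the receptor, proteases and their serpin inhibitors process Spätzle and prophenoloxidase. SPE, the protease that cleaves Spätzle, read 2256, 2121 and 2211 with E. coli and 1099, 898 and 1067 with PBS. The 3 arrays of each group were close together, and the log2 difference was 1.05 (SE 0.28, adjusted p = 0.284). Spn28Dc, a serpin that limits melanization, read 2834, 777 and 1310 with E. coli and 592, 276 and 390 with PBS (1.65, SE 0.53, adjusted p = 0.590). Spn88Ea read 0.91 (SE 0.32) and nec, the gene of the serpin Necrotic that restrains Toll activation, 0.82 (SE 0.68). These 4 had no overlap between the groups. None of the 17 tested members was called, 15 were above 0, and the median was 0.33, or 0.59 without PBS replicate 1.

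Of 7 genes for making and using catecholamines in cuticle hardening, ple and e were called higher. ple encodes tyrosine hydroxylase, which makes DOPA, the entry to melanin and cuticle cross-links. It read 4670, 2052 and 3624 with E. coli and 377, 56.7 and 658 with PBS, a rise of 3.22 (SE 0.62, adjusted p = 0.0453). The gene e, or ebony, encodes the enzyme that couples beta-alanine to dopamine. It read 1303, 744 and 903 with E. coli and 117, 65.7 and 312 with PBS, and it rose by 2.21 (SE 0.39, adjusted p = 0.0218). Ddc, the DOPA decarboxylase gene that acts between them, was as far apart at 10549, 7126 and 8472 with E. coli and 672, 749 and 1636 with PBS. Its difference of 3.09 had a wide error and was not called (SE 0.71, adjusted p = 0.116). Ddc was called when only the 6 wild type arrays were fitted (SE 0.30, adjusted p = 0.00142) and with array weights (adjusted p = 0.0258). The N-acetyltransferase gene speck read 0.58 (SE 0.31) and the laccase gene stw 0.19, while Pu, needed for the cofactor of tyrosine hydroxylase, was at 0.00. In all, 2 of 7 tested members were called higher and 4 had no overlap upward, with a median of 0.58. The call of ple held in 1 of the 6 fits that leave out an array. It was lost without any of the E. coli arrays and without PBS replicate 1 or 2, at adjusted p from 0.0618 to 0.323. The call of e held in 2 of 6 and was lost without E. coli replicate 1 or 3 and PBS replicate 1 or 2, at adjusted p from 0.108 to 0.189. The log2 differences stayed between 2.53 and 3.74 for ple and between 1.90 and 2.62 for e.

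Both ple and Ddc are known as wound-responsive genes of the epidermis, so the JNK pathway and its AP-1 factors were examined as well. Jra, the fly Jun, read 3038, 1402 and 2200 with E. coli and 1126, 859 and 671 with PBS (1.21, SE 0.32, adjusted p = 0.251). kay, the fly Fos and partner of Jun in AP-1, read 1022, 687 and 872 with E. coli and 599, 441 and 607 with PBS (0.58, SE 0.30). Neither group of arrays overlapped the other for these genes. The stress genes msn and Gadd45 read 0.53 and 0.48, whereas the JNK gene bsk read -0.53 and the feedback phosphatase gene puc 0.17. Of 13 tested members none was called, 4 had no overlap upward, and the median was 0.17. Among other wound regulators the receptor gene Pvr read 0.55 (SE 0.26) and its ligand gene Pvf3 0.59 (SE 0.51), where another probe set of Pvf3 read -0.22. The epidermal wound factor gene grh was at 0.03, and the median over 8 genes was 0.06 with no call.

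The tested genes of the JAK-STAT pathway and of heat shock were not called either. No probe set with exactly 1 symbol was found for upd3, hop, Socs36E, TotA, TotC, TotF, TotM, TotX, TotZ, Tep1, Tep2 and Mcr. The same held for Hsp22, Hsp23, Hsp83 and the listed Hsp67B and Hsp70 genes. A further 4 genes of the JAK-STAT list were removed by the signal filter. Tep4, a thioester protein secreted into the hemolymph, read 9365, 8925 and 7133 with E. coli and 5767, 4042 and 4785 with PBS (0.80, SE 0.24, adjusted p = 0.462), without overlap. Stat92E read -0.23, as did the receptor gene dome, and the median over 7 tested genes was -0.23. Tep3 read 0.45 (SE 0.43). That median was 0.25 without E. coli replicate 3 and 0.01 without E. coli replicate 2. Among 10 heat shock and chaperone genes the co-chaperone gene stv read 0.88 (SE 0.57) and Hsp26 0.48 (SE 0.62), with a median of 0.15.

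No blood cell gene was called, and values lay on both sides of 0. NimC1, the plasmatocyte receptor for bacteria, read 34.4, 86.1 and 37.5 with E. coli and 248, 338 and 84.2 with PBS (-1.11, SE 0.52). NimC2, of the same family, read 286, 282 and 258 with E. coli and 1030, 1201 and 632 with PBS (-1.50, SE 0.53, adjusted p = 0.769). All E. coli arrays of NimC2 lay below the PBS arrays, while those of NimC1 overlapped. The scavenger receptor genes crq and drpr read -0.02 and 0.10, and the 14 phagocytosis receptors had a median of 0.03. PPO1, a prophenoloxidase of crystal cells, read 874, 1494 and 1505 with E. coli and 1860, 1972 and 2132 with PBS (-0.63, SE 0.24, adjusted p = 0.853), while PPO2 read -0.26 and its other probe set 0.09. Of 7 prophenoloxidase and crystal cell genes none was called, and the median was -0.26. PPO3, the prophenoloxidase of lamellocytes, read -0.71 (SE 0.38), and peb, the gene of the transcription factor hindsight, read 0.70 (SE 0.49). Hml and Ppn, both products of plasmatocytes, read -0.41 and -0.59 without overlap, and the clotting gene fon 0.10. Another probe set of Ppn read -0.27 with overlap. The largest value of the list was that of gcm2, a glial and plasmatocyte transcription factor gene, at 1.39 (SE 0.55, adjusted p = 0.879), followed by TM4SF at 0.90 (SE 0.41), both with overlap. The gcm2 signal was 347, 427 and 56.3 with E. coli and 14.6, 68.8 and 36.8 with PBS. All its PBS arrays were thus below the pseudocount. Over 20 hemocyte and clotting genes the median was 0.01, with 10 above 0 and 10 below, and none was called. The summed signal of 10 plasmatocyte markers ranged from 14155 to 23794 on the E. coli arrays and from 17323 to 25815 on the PBS arrays, and the sum was lowest on replicate 1 in both groups. The part of cell number in the NimC2, PPO1, Hml and Ppn differences was not tested.

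The single probe set called lower was that of Npc2d. Npc2d, of the family of secreted Niemann-Pick type C2 proteins that bind sterols and other lipids, read 599, 652 and 651 with E. coli and 1832, 2161 and 1877 with PBS. The arrays of each group were tight, and it fell by 1.51 on the log2 scale (SE 0.29, adjusted p = 0.0453). Its call was lost when any one of the 6 arrays was left out, at adjusted p from 0.112 to 0.281, while the difference stayed between -1.55 and -1.44. The other 7 members of the family ranged from -0.22 for Npc2g to 0.36 for Npc2c, so the family median was -0.04. Among iron transport genes, Tsf3, a transferrin gene, read 1990, 1532 and 1544 with E. coli and 304, 285 and 620 with PBS (1.93, SE 0.45, adjusted p = 0.134), whereas Tsf1 and Tsf2 read 0.28 and -0.45 and the ferritin genes Fer1HCH and Fer2LCH -0.16 each. The 11 iron genes tested had a median of -0.16 and no call, with the multicopper oxidase gene Mco3 at 0.78 (SE 0.48).

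Metabolic and hormonal genes gave no calls. Akh, the glucagon-like adipokinetic hormone, read 322, 280 and 284 with E. coli and 524, 862 and 887 with PBS (-1.13, SE 0.40, adjusted p = 0.757). The lipin gene Lpin read 0.80 (SE 0.50) and the lipase gene bmm 0.48 (SE 0.26), and all 3 had no overlap between the groups. REPTOR, a transcription factor held in check by TORC1, read 932, 853 and 758 with E. coli and 454, 450 and 340 with PBS (0.91, SE 0.33, adjusted p = 0.792). The kinase gene Sik3 read 0.72 (SE 0.40), while other probe sets of it read -0.34 and -0.19. The insulin-binding protein gene ImpL2 read 0.64 (SE 0.29). Among glycolysis and gluconeogenesis genes Pepck2 read 0.47 (SE 0.25) and the hexokinase gene Hex-C -0.37 (SE 0.53). Medians were 0.00 over 17 lipid genes, 0.21 over 10 genes of the insulin and FOXO pathway, and 0.09 over 17 genes of glycolysis and gluconeogenesis. Without E. coli replicate 1 the insulin and FOXO median was 0.09, against 0.31 without E. coli replicate 2. Among 12 reactive oxygen enzymes the catalase Irc, which protects the gut during infection, read 0.85 (SE 0.28, adjusted p = 0.678), and the others lay between -0.46 for the peroxidase gene Pxd and 0.06. Sod3 read -0.19, while other probe sets of it read 0.47 and -0.37.

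Detoxification genes included several lower values. Cyp6g1, a P450 known for insecticide resistance, read 1579, 974 and 1650 with E. coli and 5437, 2236 and 3086 with PBS (-1.25, SE 0.36, adjusted p = 0.397). Cyp4s3 read 746, 383 and 696 with E. coli and 1723, 1430 and 1421 with PBS (-1.26, SE 0.51). Cyp9b2 read -0.81 (SE 0.23, adjusted p = 0.363), where another probe set was at -0.01. Of 72 tested P450 genes none was called, and the median was -0.04. Among them 9 had no overlap downward and 3 upward, beside 5.91% and 6.12% of all genes. The glucuronosyltransferase gene Ugt37A3 read 2394, 1102 and 1874 with E. coli and 7493, 4043 and 3001 with PBS (-1.36, SE 0.36, adjusted p = 0.251). Glutathione S-transferases did not share a direction, with 17 above 0 and 14 below, GstE4 at -0.98 (SE 0.50), GstD9 at 0.74 (SE 0.24) and a median of 0.02. Members of these families can share probe sequence, so single values are uncertain.

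No gene of the gut and epithelial enzyme lists was called. Alkaline phosphatases had 5 of 12 genes with all E. coli arrays below all PBS arrays, as 5.91% of all genes did, and none above, led by Alp1 (-1.08, SE 0.43) and Alp8 (-1.04, SE 0.31, adjusted p = 0.462). Alp8 read 471, 824 and 942 with E. coli and 1072, 1984 and 1801 with PBS. Their median was -0.29, with 10 of 12 below 0. The 38 digestive proteases, lysozymes and carbohydrases had a median of 0.06, with the maltase gene Mal-A7 highest at 1.11 (SE 0.46, adjusted p = 0.929). The protease gene Jon65Aiv read 66180, 145400 and 70483 with E. coli and 11519, 130051 and 63408 with PBS, so its 0.94 rested on PBS replicate 1, and it was -0.05 without that array. The 8 alpha-esterase genes tested had a median of -0.41, with alpha-Est10 at -0.73 (SE 0.51) and alpha-Est6 at -0.66 (SE 0.56).

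**Figure D3:**
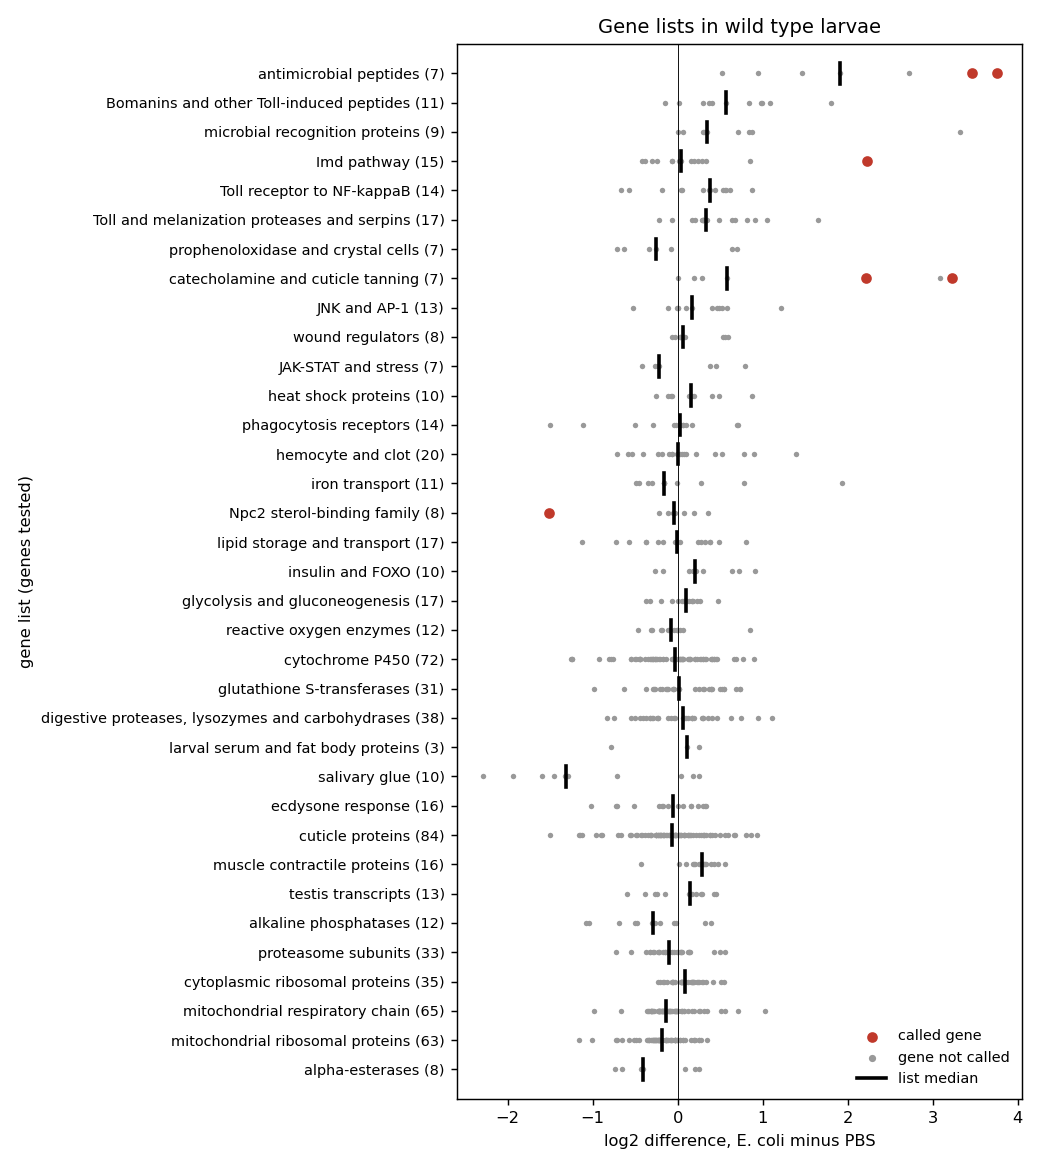
Log2 difference, E. coli minus PBS, of every tested gene in 35 gene lists, with called genes in red, other genes in grey, a black bar at the list median and the number of genes tested in brackets. Red points occur in 4 lists, and the antimicrobial peptide median lies at 1.91.

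Genes that follow larval stage varied between arrays far more than between treatments. Sgs3, a salivary glue protein switched on late in larval life, read 41937, 44.8 and 4832 with E. coli and 33021, 20205 and 4415 with PBS. E. coli replicate 2 was below the pseudocount, while replicate 1 was high in both groups. Sgs3 differed by -2.29 with a standard error of 1.98, and Sgs5bis by -1.94 (SE 1.80). The list median over 10 glue genes was -1.31. None was called, none was free of overlap, and Sgs5bis read 0.11 without E. coli replicate 2. Fbp1, a fat body receptor for larval serum protein, varied in the same way, at 26757, 809 and 1479 with E. coli and 27523, 4690 and 1363 with PBS. Its difference of -0.78 (SE 1.61) was 0.17 without E. coli replicate 2 and 0.35 without PBS replicate 1. By contrast, the serum protein gene Lsp2 lay between 78905 and 102025 with E. coli and between 69948 and 113805 with PBS, and Fbp2 differed by 0.25 (SE 0.34). Summed over 10 glue genes, the signal ranged from 18293 to 288344 on the E. coli arrays and from 80405 to 221393 on the PBS arrays, and Sgs4 was below the pseudocount on all 6. Whether stage contributed to any called difference was not tested. Ecdysone response genes had a median of -0.05 over 16, with MsrA, first known as the ecdysone-induced Eip71CD and encoding a methionine sulfoxide reductase, at 825, 1507 and 1090 with E. coli and 1739, 3150 and 2278 with PBS (-1.01, SE 0.24, adjusted p = 0.151). The nuclear receptor gene usp read -0.73 (SE 0.40). Among 84 cuticle protein genes Cpr78E read -1.51 (SE 1.15) and TwdlO -1.16 (SE 1.13), both scattered within groups. The median was -0.07, and it was 0.15 without E. coli replicate 1.

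**Figure D4:**
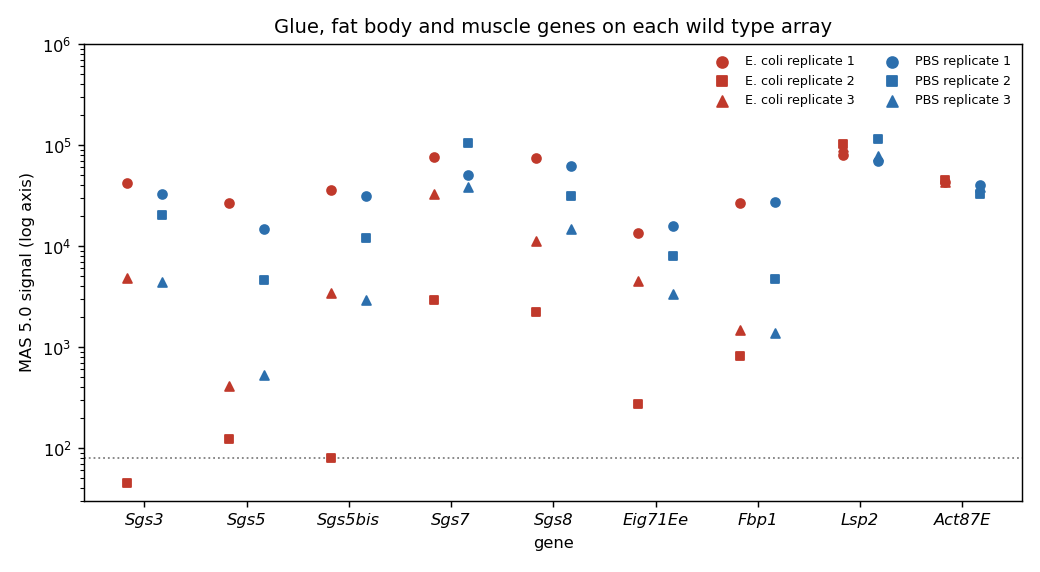
Signals of 6 genes of the glue list, 2 fat body genes and a muscle actin on each wild type array on a log axis, with E. coli in red left of PBS in blue, replicate 1 as circles, replicate 2 as squares and replicate 3 as triangles, and a dotted line at 80. Sgs3 spans 44.8 to 41937 within the E. coli group, whereas Act87E lies between 32601 and 45363 on all 6 arrays.

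Genes of basic cell functions were nearly level. Muscle genes were slightly higher, with 15 of 16 above 0, 6 without overlap upward and a median of 0.28. Over all genes, 49.1% were above 0 and 6.12% had no overlap upward. Act79B at 0.56 (SE 0.23, adjusted p = 0.957) was the highest muscle gene, ahead of Mlc2 at 0.48 (SE 0.25). The summed signal of 18 muscle markers was 331922 to 434747 on the E. coli arrays and 276445 to 345583 on the PBS arrays. Cytoplasmic ribosomal proteins had a median of 0.08 over 35 genes. Subunits of the mitochondrial respiratory chain had -0.13 over 65, mitochondrial ribosomal proteins -0.19 over 63 and proteasome subunits -0.11 over 33. The members farthest from 0 were mRpL20 at -1.16 (SE 0.51) and mRpL4 at -1.01 (SE 0.39) of the mitochondrial ribosome, and COX4L at 1.02 (SE 0.49) and UQCR-14L at -0.98 (SE 0.42) of the respiratory chain. They were Rpt3R at -0.73 (SE 0.44) and Prosalpha4T1 at 0.55 (SE 0.42) of the proteasome, and RpL37A at 0.55 (SE 0.37) and RpS19b at 0.51 (SE 0.48) of the cytoplasmic ribosome. Some of these rested on low signals. UQCR-14L read 28.2, 24.8 and 26.7 with E. coli, all below the pseudocount, and 166, 73.5 and 167 with PBS. Prosalpha4T1 read 181, 33.3 and 49.8 with E. coli and 51.1, 20.7 and 11.8 with PBS. COX4L read 272, 281 and 259 with E. coli and 170, 10.1 and 148 with PBS. In these 4 lists no gene was called, and 50 of the 63 mitochondrial ribosomal proteins were below 0. Testis transcripts had a median of 0.15 over 13 genes, with Mst98Cb at 0.45 (SE 0.58) and Mst84Db at -0.60 (SE 0.66), which read 0.46 without E. coli replicate 2.

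Called genes outside the lists were less well known. CG14567 read 8255, 5442 and 6031 with E. coli and 162, 414 and 780 with PBS, a rise of 3.81 (SE 0.53, adjusted p = 0.00260) and the largest of a named gene. CG12826 read 5402, 3561 and 3601 with E. coli and 1361, 1109 and 1254 with PBS, and rose by 1.67 (SE 0.21, adjusted p = 0.00155). Both calls held whichever of the 6 arrays was left out, at log2 differences of 3.33 to 4.24 for CG14567 and 1.47 to 1.77 for CG12826. CG11529 read 4499, 3981 and 3975 with E. coli and 918, 511 and 858 with PBS and rose by 2.36 (SE 0.46, adjusted p = 0.0478). CG42562 read 2714, 1995 and 2268 with E. coli and 440, 1005 and 869 with PBS and rose by 1.56 (SE 0.27, adjusted p = 0.0221). CG11529 lost its call without any one of the 6 arrays, at adjusted p from 0.108 to 0.346. CG42562 lost it without any E. coli array or PBS replicate 1, at adjusted p from 0.0521 to 0.183.

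Below the threshold, the 12 higher and 12 lower named genes of smallest p without overlap between the groups are given as values. Among the higher ones, beside Mtk, PGRP-SB1, BomS5 and Bbd, was Drat, named as a target that lends resistance to cell death. It read 16665, 12507 and 15069 with E. coli and 4514, 2813 and 3075 with PBS (2.08, SE 0.42, adjusted p = 0.0635). Esp, of the sulfate transporter family, read 1253, 923 and 1133 with E. coli and 521, 369 and 470 with PBS (1.15, SE 0.23, adjusted p = 0.0589). These 2 had the smallest adjusted p of the uncalled rises. CG6429, of the invertebrate lysozyme family, read 1381, 1055 and 1709 with E. coli and 136, 185 and 587 with PBS (2.09, SE 0.45, adjusted p = 0.0805). CG2121, CG11825, CG14762, CG13868 and CG13144 lay between 1.56 and 1.89, at adjusted p from 0.0791 to 0.0828.

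The lower ones were led by CG13659, which read 234, 206 and 210 with E. coli and 812, 1190 and 508 with PBS (-1.56, SE 0.32, adjusted p = 0.0652). CG15820 read 50.2, 45.2 and 39.9 with E. coli, all below the pseudocount, and 361, 345 and 180 with PBS (-1.55, SE 0.33, adjusted p = 0.0805). CG10505, an ABC transporter gene, read 344, 304 and 357 with E. coli and 1557, 711 and 1333 with PBS (-1.56, SE 0.34, adjusted p = 0.0805). JhI-26, named for its induction by juvenile hormone, was the tightest, at 2127, 1785 and 1895 with E. coli and 4609, 4619 and 4647 with PBS (-1.23, SE 0.27, adjusted p = 0.0916). CG17283 read -1.94, CG11892 -1.70, CG7149 -1.23, CG13255 -0.93 and CG9664 -0.89, at adjusted p from 0.106 to 0.325.

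**Figure D5:**
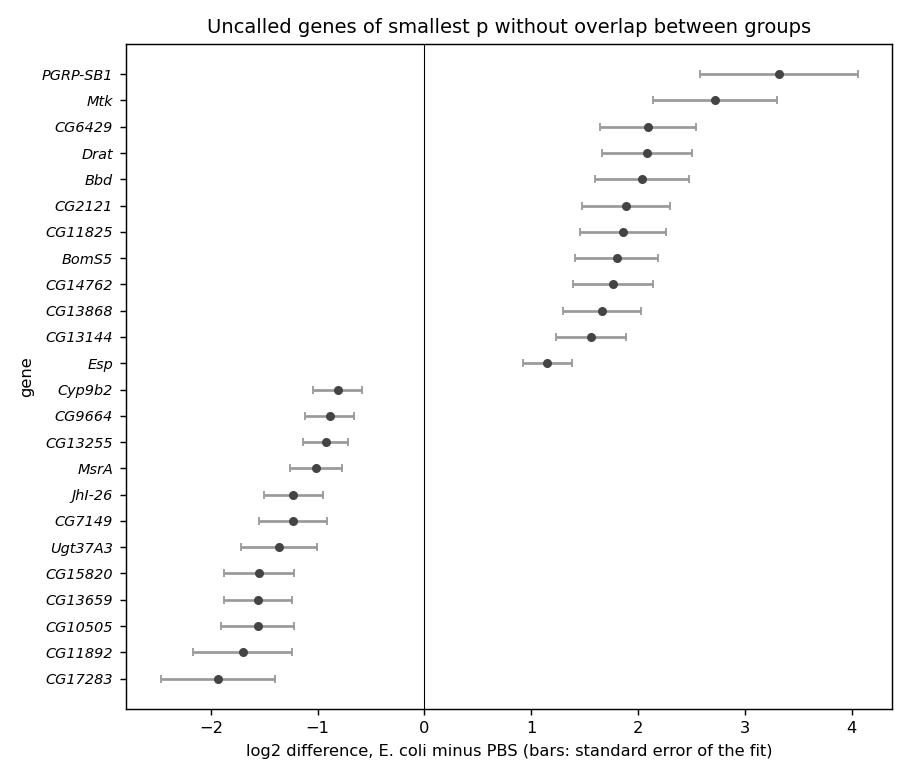
Log2 difference, E. coli minus PBS, of the 12 higher and 12 lower uncalled genes of smallest p whose arrays did not overlap, with the standard error of the fit as bars. The higher values run from 1.15 for Esp to 3.32 for PGRP-SB1 and the lower ones from -1.94 for CG17283 to -0.81 for Cyp9b2.

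The called probe sets were also read on the 9 mutant arrays, which were injected with E. coli per their treatment text although their titles hold the letters ctr, as those of the PBS arrays do. For all 17 probe sets called higher, every mutant array lay below every wild type E. coli array, as it did for 1.60% of all probe sets tested. For Npc2d, the one called lower, every mutant array lay above, as for 1.79% of all. The wild type E. coli arrays enter both the call and this count, so it describes levels and is no test. CG14567 read 200 to 713 in the Relish mutant, 154 to 1068 in the Dif mutant and 490 to 968 in the dorsal mutant, overlapping its PBS range of 162 to 780 in wild type. CG12826 read 2084 to 2558, 1438 to 2162 and 2710 to 2744 in the Relish, Dif and dorsal mutants, above its wild type PBS arrays and below its wild type E. coli arrays. Npc2d read 1083 to 1534 in the Relish mutant, 964 to 1578 in the Dif mutant and 657 to 1593 in the dorsal mutant. Mutant larvae injected with PBS are not analysed here, and whether the response to bacteria differs between genotypes was not tested.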

How the data were processed

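The deposited table holds 1 intensity per probe set and array. Per the labels, the authors made these signals with Microarray Suite (MAS) 5.0 at default settings with global scaling, and the submitters' processing notes name MAS5 too. The mean without 2% of probe sets at each end was 800.2 to 800.25 on every array. No detection calls were used. Of 14010 probe sets, 44 Affymetrix controls were left out. Genes were named from the platform annotation, with symbols updated by Entrez identifier to the RefSeq table of Release 6 plus ISO1 MT. There were 12443 probe sets with 1 symbol, 327 with several, which name no gene here, and 1196 without any. No coordinates or sequences are printed, since neither an array build nor sequence tables were used here.

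Log2(signal + 80) was fitted for probe sets at 160 or more on at least 3 of the 15 arrays (11427 kept, 2539 removed), with 1 mean per group over all 15 arrays, in limma 3.58.1 (R 4.3.3, lmFit, eBayes with a variance trend, two-sided, 10 residual degrees of freedom). P-values were adjusted by Benjamini-Hochberg over all probe sets tested. The fit was tested on simulated data. Alternatives changed the pseudocount, filter, arrays, block, trend, weights and normalization.

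The comparison, the 35 gene lists and the rule for naming genes were chosen with earlier results of these data known, and a few wrongly matched or misplaced list entries were corrected afterwards. The rule named Rel, Dif and dl, every called gene, of each list the called members and, with fewer than 2 of these, the 2 with the largest difference, and the 12 uncalled rises and 12 uncalled falls of smallest p without overlap. Other list members were named after their values were seen. Each listed gene was read from the probe set with the highest mean over the 15 arrays. Listed genes without a tested probe set of 1 symbol are not analysed here.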

Additional observations from a re-analysis of the deposited data

How the results depend on the processing

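Against 17 higher and 1 lower in the reported fit, with 18 in all, the calls were 29, 2 and 31 with only the 6 wild type arrays and 50, 8 and 58 with array weights. There were 2 lower under the stricter filter (320 on at least 3 wild type arrays), and 0 lower with no filter, with quantile normalization and with arrays that share a title number averaged, where limma found 646, 521 and 274 probe sets at an unadjusted p under 0.05. The averaging joined replicates 2 and 3 in both wild type groups, and replicates 1 and 2 of the dorsal mutant, and left 12 higher. With the replicate number as a block in the 6 wild type arrays there were 68 higher and 19 lower, 87 in all, among them the 18. PGRP-SB1 (adjusted p = 1.85e-05) and Ddc (adjusted p = 0.000489) passed there too. Calls that were lower made up 5.56% in the reported fit, 13.8% with array weights and 21.8% with the block. Of the 87 uncalled probe sets chosen by the rule, 31 passed under at least 1 alternative. The labels give both groups the same numbers without saying what they share. Deviations from the group means correlated at 0.34, 0.18 and 0.08 between same-numbered arrays, and at -0.27 to 0.09 between the others. The reported fit did not pair the samples, and these values do not settle whether the numbers mark pairs. Each E. coli array correlated best with the PBS array of its own number, but PBS replicate 3 correlated best with E. coli replicate 2 (0.09). Leaving out 1 wild type array gave 10 to 17 higher, 0 to 1 lower and 10 to 18 in all, with 10 in all without E. coli replicate 1 and 11 without E. coli replicate 3. Leaving out 1 array changed the sign of 333 of the 729 genes in the lists, none of them called. Among the 99 probe sets that the naming rule chose, 7 changed sign, none of them called. Over those fits the log2 difference ran from -1.06 to 0.024 for Hex-C, from -0.048 to 1.70 for Jon65Aiv, from -2.29 to 0.35 for Fbp1, from -0.072 to 0.50 for Fbp2, from -3.80 to 0.11 for Sgs5bis, from -1.53 to 0.46 for Mst84Db and from -0.0089 to 1.01 for RpL37A. Low signals limit what can be seen, since 9.79% to 12.3% of the tested values on the E. coli arrays and 10.5% to 13.7% on the PBS arrays were below the pseudocount.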
